A study of Mus musculus with 14 samples.

Results

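Levels of 10 genes that glucocorticoids or cellular stress are known to induce were followed across 14 libraries of mouse brain RNA. The 10 genes are Fkbp5, Tsc22d3, Nfkbia, Zbtb16, Sgk1, Errfi1, Ddit4, Pdk4, Plin4 and Fam107a, taken by symbol from the 48440 rows of the count table, and all 10 passed the filter on low counts that 24680 rows passed. The series compared brain tissue of mice with the genotype CARIP-/- with that of wild-type mice, all of the strain C57BL/6. There were 3 knockout and 3 wild-type libraries of cerebellum, and 2 of each genotype for both cerebral cortex and hippocampus. The sources used here give neither age, nor the targeted exon, nor whether the gene is lost in every cell, and CARIP is not a gene symbol of the annotation used, so the level of the targeted gene itself was not analysed here. Nothing states that libraries of a group came from separate mice, so p-values measure the spread between libraries, which may be technical.

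Glucocorticoids enter cells and bind the glucocorticoid receptor, and in neurons also the mineralocorticoid receptor, which then move to the nucleus and act on response elements near their target genes. Some targets feed back on the hormone or dampen inflammation, others steer growth signalling, fuel choice or the cytoskeleton. Several of the same genes also answer to other inputs, such as NF-kappaB, insulin, growth factors, lack of oxygen or the integrated stress response, so the list does not read out the hormone alone. In brain tissue many of them are expressed in glia and blood vessels as well as in neurons. In bulk RNA, fewer cells of a type and less RNA per cell cannot be told apart.

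The genes were chosen by name with earlier results of these libraries known, that is, selected on the measured differences between the genotypes among other things. Differences between knockout and wild type are therefore given below as a description. Contrasts between brain regions do not use the difference between the genotypes and were tested. Whether regional differences played a part in the choice is not stated in the sources used here.

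Total counts per library ran from 20055166 to 38770999 reads, and the lowest count of any of the 10 genes in any library was 140 reads. Some libraries stood apart in markers of neighbouring tissue. Knockout cortex library 2 had a summed level of 6 striatal neuron markers of 529 CPM (reads of a gene relative to the library total, scaled between libraries), against 91.4 to 113 CPM in the other cortical libraries, and of 6 choroid plexus markers of 586 CPM against 17.2 to 36.2 CPM. The same knockout library had 282 CPM of 6 hippocampal excitatory neuron markers against 111 to 112 CPM in the other cortical libraries. Its 4 thalamic neuron markers summed to 268 CPM against 36 to 43 CPM, and its 6 granule cell markers to 109 CPM against 36.6 to 44.2 CPM. Its 6 cortical excitatory neuron markers were lower, at 1221 CPM against 1734 to 1779.5 CPM. Wild-type cortex library 2 had 196 CPM of 5 meningeal fibroblast markers against 35.4 to 70.7 CPM in the other cortical libraries. Wild-type cerebellum library 2 had 8984 CPM of 8 oligodendrocyte markers against 2265 to 4310 CPM in the other cerebellar libraries. Wild-type cerebellum library 1 had only 26.6 CPM of the choroid plexus markers against 632 to 1366 CPM, and wild-type hippocampus library 2 had 1133 CPM against 81.9 to 132 CPM. The 6 granule cell markers summed to 2093 to 3392 CPM in the cerebellar libraries and to 31.1 to 109 CPM elsewhere, as the region labels state.

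Promoter sequence was available from RefSeq on GRCm38.p6 for 9 of the 10 genes, as 19 windows from 250 bases before to 50 bases after a transcription start. The core of the glucocorticoid response element, searched on both strands as GNACA and its complement TGTNC with 3 bases between them, was present in windows of Sgk1 and Fam107a, in 3 of the 19 windows, and in 0.475% of all 32851 windows. The 3 windows hold 2 separate sites, since the pair of Fam107a windows is shifted by 2 bases and shares its site. A kappaB motif, searched on both strands as GGG and TTTCC with 2 bases between them, was present in the window of Nfkbia and in 1.63% of all windows. These stretches are shown because Sgk1 and Fam107a hold the same motif and stood on opposite sides of the genotype comparison, and because Nfkbia encodes an inhibitor of the factor named by its motif. Capitals mark the motif. The Fam107a stretch is chr14:8309845-8309944 on the minus strand, bases 165 to 66 before a start. The Sgk1 stretch is chr10:21993640-21993739 on the plus strand, bases 250 to 151 before a start, and the Nfkbia stretch is chr12:55492658-55492747 on the minus strand, bases 100 to 11 before the start.
Fam107a: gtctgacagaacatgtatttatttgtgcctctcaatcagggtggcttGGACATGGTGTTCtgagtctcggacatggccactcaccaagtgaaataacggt
Sgk1: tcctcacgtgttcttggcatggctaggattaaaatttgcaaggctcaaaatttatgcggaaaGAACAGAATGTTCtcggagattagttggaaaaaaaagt
Nfkbia: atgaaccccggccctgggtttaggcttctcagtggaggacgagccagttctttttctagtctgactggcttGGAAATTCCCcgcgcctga
The shorter hexamer TGTTCT, which overlaps the response element core in Sgk1 and Fam107a, was found in windows of Sgk1, Fam107a and Tsc22d3 and in 19.0% of all windows. The cAMP response element TGACGTCA was present in Errfi1 and in 1.79% of all windows, and the E-box CACGTG in Fkbp5 and Sgk1 and in 7.15% of all windows. No window of the 10 genes held the forkhead motif GTAAACA, which was present in 3.65% of all windows. A match describes letters in these windows and not binding, and receptor sites far from a start lie outside them.

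Per kilobase of exon, the scale on which levels of different genes can be set side by side, Fam107a was far above the others with a median over the 14 libraries of 152 CPM per kilobase. Zbtb16 followed at 28.7, Sgk1 at 18.6, Tsc22d3 at 15.1, Errfi1 at 12.1 and Ddit4 at 11.1 CPM per kilobase. Nfkbia lay at 8.35, Plin4 at 6.96, Fkbp5 at 4.02 and Pdk4 at 3.18 CPM per kilobase. The highest library exceeded the lowest by 7.42 times for Fkbp5 and 7.08 times for Zbtb16, whose levels differed between regions, by 5.01 times for Plin4 and by 3.23 times for Fam107a. Tsc22d3 was the steadiest of the 10, with a ratio of 1.84.

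**Figure D1:**
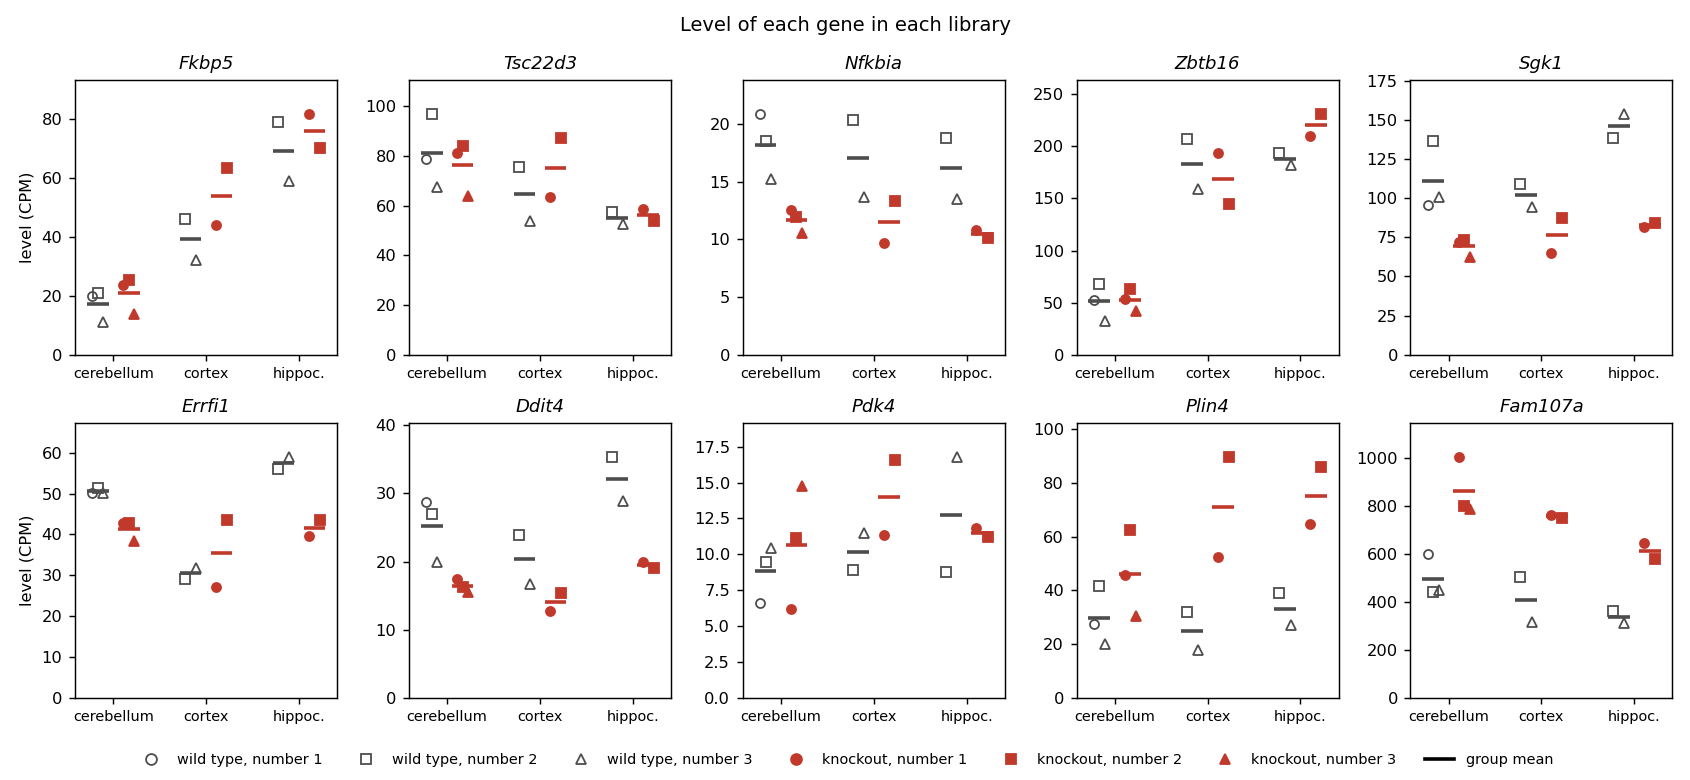
Level of each of the 10 genes in CPM (vertical axes start at 0 and differ in range) in each of the 14 libraries, by region, with filled symbols for knockout, open symbols for wild type, symbol shapes for library numbers and bars for group means. Fam107a in the knockout lies between 578 and 1003 CPM and in the wild type between 311 and 599 CPM. The group means of Fkbp5 rise from cerebellum to cortex to hippocampus in both genotypes, and the step from cortex to hippocampus did not pass by edgeR.

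The first group holds genes that act on the receptor or on transcription. Fkbp5 (17:28399094-28517527, minus strand, GRCm38) encodes a co-chaperone that lowers the hormone affinity of the glucocorticoid receptor and is induced by it, which closes a short feedback loop. Its level was lowest in the cerebellum, at 11.0 to 25.4 CPM with a median of 20.4 CPM in 6 libraries. The 4 cortical libraries had 44.0, 63.2, 46.0 and 32.2 CPM and the 4 hippocampal ones 81.6, 70.2, 79.0 and 58.8 CPM, knockout before wild type. No cerebellar library reached the lowest cortical one, whereas cortex and hippocampus overlapped. Fkbp5 was lower in cerebellum than in cortex by a log2 fold change of -1.27 ± 0.22 (SE) and higher in hippocampus than in cerebellum by 1.93 ± 0.22, with adjusted p of 6.3e-04 and 2.7e-05 by edgeR's quasi-likelihood test with Benjamini-Hochberg adjustment over all 24680 genes. Such contrasts passed in 48.4% and 47.3% of all genes, so a difference from the cerebellum was common.

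Between the genotypes Fkbp5 overlapped in every region. In the cerebellum, knockout libraries 1, 2 and 3 had 23.5, 25.4 and 13.7 CPM and wild-type libraries 1, 2 and 3 had 19.9, 21.0 and 11.0 CPM. Library 3 was thus the lowest of both genotypes. The log2 fold changes of knockout over wild type were 0.27 ± 0.29 in cerebellum, 0.46 ± 0.35 in cortex and 0.14 ± 0.34 in hippocampus. Without knockout cortex library 2, the one with striatal, thalamic, hippocampal and choroid plexus markers, the cortical value was 0.16.

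Zbtb16 (9:48654297-48836222, minus strand) encodes PLZF, a zinc finger repressor of transcription. Its regional means had the same order as those of Fkbp5. The step from cortex to hippocampus passed for neither gene by edgeR. It was 0.66 ± 0.25 for Fkbp5 and 0.21 ± 0.20 for Zbtb16 (adjusted p = 0.12 and 0.59, edgeR). With genotype and library number as a block in limma, Fkbp5 passed this step. Cerebellar libraries lay between 32.6 and 68.3 CPM with a median of 52.9 CPM. Cortical libraries had 193 and 144 CPM in the knockout and 207 and 159 CPM in the wild type, and hippocampal ones 210.4 and 231 CPM against 194 and 182 CPM. Cerebellum stood below both other regions without overlap, by -1.76 ± 0.18 against cortex (adjusted p = 1.1e-05, edgeR), and hippocampus exceeded cerebellum by 1.97 ± 0.18 (adjusted p = 3.7e-06, edgeR). The knockout libraries were above the wild-type ones in hippocampus only, with a log2 fold change of 0.23 ± 0.29, and 18.1% of all genes had the same arrangement there.

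Tsc22d3 (X:140539528-140600659, minus strand) encodes GILZ, a leucine zipper protein that mediates part of the anti-inflammatory action of glucocorticoids. Its regional means stood in the opposite order to those of Fkbp5: 63.9 to 96.8 CPM in cerebellum, 53.8 to 87.1 CPM in cortex and 52.7 to 58.6 CPM in hippocampus. Hippocampus was lower than cerebellum by -0.50 ± 0.14 (adjusted p = 0.010, edgeR), and the neighbouring steps in this order did not pass. Within the knockout libraries alone the contrast was -0.44 ± 0.20 and did not pass (adjusted p = 0.11, edgeR). The ratio of the knockout mean to the wild-type mean was 0.945 in cerebellum, 1.16 in cortex and 1.02 in hippocampus, and the genotypes overlapped in all 3 regions.

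Nfkbia (12:55489410-55492647, minus strand) encodes IkappaB alpha, which holds NF-kappaB in the cytoplasm and is itself a target of both NF-kappaB and the glucocorticoid receptor. In the cerebellum it was at 12.6, 11.9 and 10.5 CPM in the knockout and 20.9, 18.5 and 15.3 CPM in the wild type. Cortical levels were 9.72 and 13.4 CPM in the knockout against 20.4 and 13.7 CPM in the wild type, and hippocampal levels 10.8 and 10.1 CPM against 18.8 and 13.5 CPM. Every knockout library was below every wild-type library of its region, in the cortex by a narrow margin between knockout library 2 and wild-type library 3. The knockout means were 0.64, 0.678 and 0.648 of the wild-type means in cerebellum, cortex and hippocampus. Levels did not pass a test in any contrast between regions, with regional means of 14.9 ± 4.07 CPM (SD, n = 6), 14.3 ± 4.45 CPM (n = 4) and 13.3 ± 3.93 CPM (n = 4).

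The second group holds regulators of kinase and growth signalling. Sgk1 (10:21882184-21999903, plus strand) encodes a serum- and glucocorticoid-regulated kinase that acts on ion channels and transporters downstream of PI3 kinase. Cerebellar knockout libraries had 72.1, 73.4 and 62.4 CPM and wild-type libraries 95.9, 136 and 101 CPM. In cortex the values were 65.2 and 87.3 CPM against 109 and 94.7 CPM, and in hippocampus 82.0 and 84.4 CPM against 138 and 154 CPM. As for Nfkbia, no knockout library reached a wild-type library of its region. The ratio of means was 0.624 in cerebellum, 0.749 in cortex and 0.569 in hippocampus.

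Hippocampus exceeded cerebellum in Sgk1 by 0.33 ± 0.12 (adjusted p = 0.034, edgeR). This small contrast lost its call when any of 8 libraries was left out, with adjusted p from 0.051 to 0.15: each of the 4 hippocampal libraries, and libraries 1 and 3 of either genotype in the cerebellum. Within wild type or knockout alone it was 0.40 ± 0.16 and 0.26 ± 0.17 (adjusted p = 0.087 and 0.25, edgeR).

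Ddit4 (10:59949669-59951834, minus strand) encodes REDD1, an inhibitor of mTOR complex signalling that glucocorticoids, lack of oxygen and the transcription factor ATF4 can each induce. It was at 17.4, 16.2 and 15.5 CPM in the knockout cerebellum and 28.7, 27.0 and 20.0 CPM in the wild type. Levels of 12.7 and 15.4 CPM stood against 23.9 and 16.7 CPM in cortex, and 19.9 and 19.0 CPM against 35.3 and 29.0 CPM in hippocampus. The genotypes did not overlap in any region, and the ratios of means were 0.65, 0.692 and 0.606. Hippocampus exceeded cortex by 0.56 ± 0.15 (adjusted p = 0.026, edgeR), a contrast that 12% of all genes passed. Leaving out any of 5 libraries ended this call, with adjusted p from 0.052 to 0.12: knockout cortex 1, wild-type cortex 3, either knockout hippocampus library and wild-type hippocampus 2. It was also lost within either genotype alone, at 0.66 ± 0.21 in wild type and 0.47 ± 0.21 in knockout (adjusted p = 0.094 and 0.28, edgeR).

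Errfi1 (4:150853919-150868892, plus strand) encodes MIG6, a feedback inhibitor of the epidermal growth factor receptor. Cerebellar levels were 42.7, 42.8 and 38.4 CPM in the knockout and 50.1, 51.5 and 50.2 CPM in the wild type, and hippocampal levels 39.6 and 43.6 CPM against 56.0 and 58.9 CPM. Cortex had 27.2 and 43.6 CPM against 29.2 and 31.7 CPM. The knockout was thus lower without overlap in cerebellum and hippocampus, whereas in cortex knockout library 2 was the highest and knockout library 1 the lowest of the 4. The cortical log2 fold change was 0.22 ± 0.18 with all libraries and -0.17 without knockout cortex library 2. That library also carried the striatal, thalamic, hippocampal and choroid plexus markers. Their part in the result was not tested.

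Between regions, Errfi1 was lowest in cortex: cerebellum was higher by 0.48 ± 0.11 (adjusted p = 0.0042, edgeR) and hippocampus by 0.57 ± 0.12 (adjusted p = 0.0092, edgeR). Within the knockout libraries alone these contrasts were 0.22 and 0.23 and did not pass, with adjusted p of 0.3 and 0.54 by edgeR. Without knockout cortex library 2, the 2 contrasts over both genotypes were 0.68 ± 0.08 and 0.77 ± 0.09 (adjusted p = 3e-05 and 1e-04, edgeR).

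The third group acts in metabolism. Pdk4 (6:5483351-5496309, minus strand) encodes a kinase that switches off pyruvate dehydrogenase and so shifts cells from glucose to fatty acid oxidation. It was the lowest of the 10 genes and the least orderly. Knockout libraries had 6.19, 11.1 and 14.7 CPM in cerebellum, 11.3 and 16.6 CPM in cortex and 11.8 and 11.2 CPM in hippocampus. The wild-type values were 6.58, 9.49 and 10.4 CPM, 8.93 and 11.5 CPM, and 8.76 and 16.8 CPM. The genotypes overlapped everywhere, and no contrast between regions passed.

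Plin4 (17:56100591-56109803, minus strand) encodes a perilipin that coats lipid droplets. Its exons overlap those of the opposite-strand gene Hdgfl2 by 17 bases, and whether counting used strand is not given in the sources used here. Knockout cerebellar libraries 1, 2 and 3 had 45.7, 62.5 and 30.5 CPM and the wild-type ones 27.5, 41.6 and 19.9 CPM. These ranges overlap, but each knockout library was above the wild-type library of the same number, by 1.66, 1.50 and 1.54 times. In cortex 52.3 and 89.5 CPM stood against 32.0 and 17.9 CPM, and in hippocampus 64.6 and 86.0 CPM against 38.8 and 27.0 CPM. There the genotypes did not overlap, and the knockout means were 2.84 and 2.29 times the wild-type means. The cortical log2 fold change of 1.51 ± 0.45 was 1.06 without knockout cortex library 2 and 2.00 without wild-type cortex library 2.

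Fam107a (14:8296274-8318023, minus strand), also called DRR1, encodes an actin-binding protein induced by stress and glucocorticoids, and is strongly expressed in astrocytes. The knockout cerebellum had 1003, 801 and 787 CPM and the wild-type cerebellum 599, 440.4 and 450.0 CPM. Cortical levels were 764 and 751 CPM against 502 and 314 CPM, and hippocampal levels 644 and 578 CPM against 361 and 311 CPM. In each region every knockout library exceeded every wild-type library, and the ratios of means were close to each other at 1.74, 1.86 and 1.82. Hippocampus was lower than cerebellum by -0.53 ± 0.14 (adjusted p = 0.0076, edgeR), and the cortex lay between them without passing against either. Within the knockout libraries alone the contrast was -0.50 ± 0.20 (adjusted p = 0.074, edgeR). The summed level of 8 astrocyte markers was 3328 to 4077 CPM in knockout and 3594 to 4614 CPM in wild-type cerebellum. In cortex it was 6688 to 7971 CPM and 6536 to 7004 CPM, and in hippocampus 6860 to 6986 CPM and 6788 to 6951 CPM. In cortex and hippocampus 1 marker, Slc1a2, made up most of each sum, at 5304 to 5904 CPM and 5121 to 5445.5 CPM. The sums overlapped, but single astrocyte markers did not all do so. Of the 8, 2 were lower in the knockout without overlap in cerebellum (4.52% of all genes). In cortex 2 were higher (14%), and in hippocampus 5 were higher (18.1%) and 3 lower (18.6%). Aqp4, the astrocyte water channel, was at 151 to 197 CPM in knockout and 269 to 340 CPM in wild-type cerebellum, and Gja1, a gap junction subunit, at 103 to 130 CPM and 151 to 195 CPM. In hippocampus Gjb6, another gap junction subunit, was at 45.1 to 45.9 CPM in knockout and 31.2 to 33.7 CPM in wild type. Astrocyte markers thus lay on both sides, and their part in the result was not tested.

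**Figure D2:**
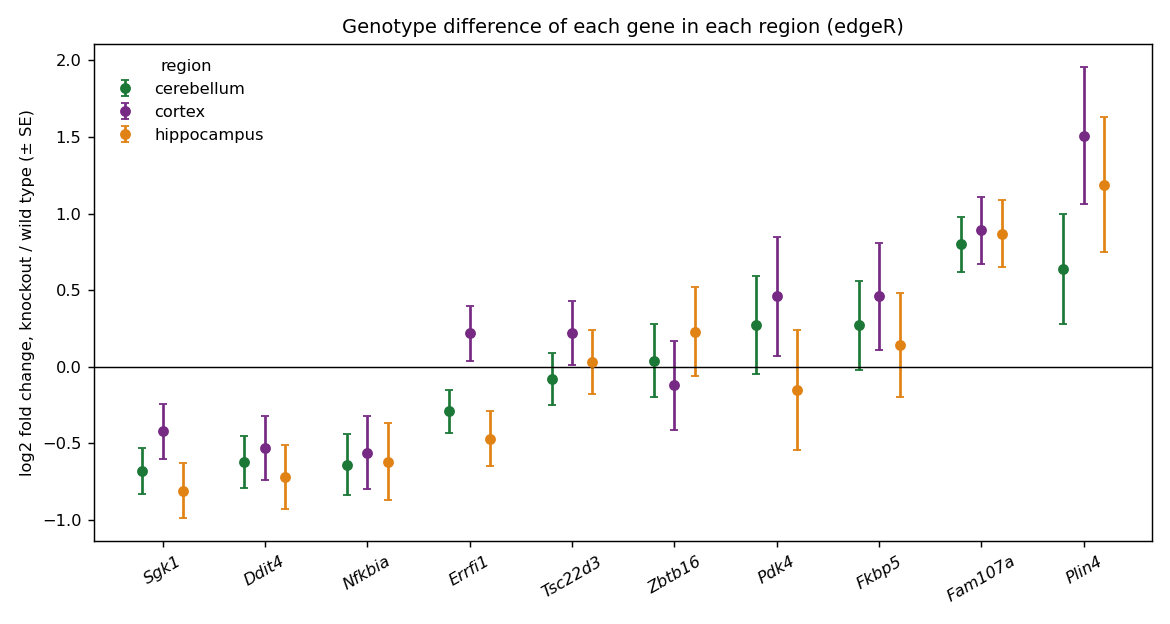
Log2 fold change of knockout over wild type from edgeR (vertical axis, error bars ± SE) for each gene in cerebellum (3 against 3 libraries), cortex and hippocampus (2 against 2 each). Sgk1, Ddit4 and Nfkbia lie between -0.42 and -0.81 in all 3 regions, Fam107a between 0.80 and 0.89 and Plin4 between 0.64 and 1.51, and no value passed after adjustment over all genes.

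Set side by side, the 10 genes did not move as a block between the genotypes. Sgk1 had log2 fold changes of -0.68 ± 0.15, -0.42 ± 0.18 and -0.81 ± 0.18 in cerebellum, cortex and hippocampus, Ddit4 of -0.62 ± 0.17, -0.53 ± 0.21 and -0.72 ± 0.21, and Nfkbia of -0.64 ± 0.20, -0.56 ± 0.24 and -0.62 ± 0.25. Fam107a had 0.80 ± 0.18, 0.89 ± 0.22 and 0.87 ± 0.22, and Plin4 0.64 ± 0.36, 1.51 ± 0.45 and 1.19 ± 0.44. The median over the 10 genes was -0.02 in cerebellum, 0.22 in cortex and -0.06 in hippocampus, beside -0.01, 0.02 and 0.00 over all genes tested.

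The libraries that stood apart in tissue markers were left out 1 at a time, and the 5 genes kept their directions. Of these genes only Plin4 in cerebellum overlapped between the genotypes. Elsewhere leaving out 1 library could not turn a direction round, so only the sizes are read. The 5 were also singled out by these same differences. Without knockout cortex library 2 the cortical values were -0.65 for Sgk1, -0.68 for Ddit4, -0.82 for Nfkbia and 0.90 for Fam107a. Without wild-type cerebellum library 2, Sgk1 was at -0.50, Ddit4 at -0.57, Nfkbia at -0.63, Fam107a at 0.72 and Plin4 at 0.97. Without wild-type cerebellum library 1 these genes lay at -0.77, -0.52, -0.54, 0.96 and 0.59 in the same order. In hippocampus without wild-type library 2, the values were -0.89 for Sgk1, -0.57 for Ddit4, -0.37 for Nfkbia, 0.98 for Fam107a and 1.48 for Plin4. Without wild-type cortex library 2, the one with meningeal markers, the cortical values were -0.23 for Nfkbia, -0.24 for Ddit4, -0.30 for Sgk1, 1.28 for Fam107a and 2.00 for Plin4. The cortical differences of Nfkbia and Ddit4, -0.56 and -0.53 with all libraries, were thus much smaller without this library. The difference of Nfkbia in hippocampus was also smaller without wild-type library 2, and that of Plin4 in cortex without knockout library 2.

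By edgeR none of the 10 passed at an adjusted p of 0.05 in any region, and neither did any of the 24680 genes (0% called). At an unadjusted p under 0.05 there were 4 of the 10 in cerebellum, 5 in cortex and 6 in hippocampus, beside 3.18%, 7.39% and 1.91% of all genes, or 785, 1825 and 472 genes. DESeq2 called 2, 47 and 2 genes in the 3 regions and limma 0 in each, with none of the 10 among them. The genotypes did not overlap with the knockout lower in 4 of the 10 genes in cerebellum (4.52% of all genes), 3 in cortex (13.3%) and 4 in hippocampus (18.6%). With the knockout higher, there was 1 gene in cerebellum (4.78%), 2 in cortex (14%) and 3 in hippocampus (18.1%). Nfkbia, Sgk1 and Ddit4 were lower without overlap in all 3 regions, as were 0.263% of all genes, and Fam107a was higher without overlap in all 3, as were 0.429%. Since these differences were in view when the genes were put together, these shares describe the choice and nothing is read from them.

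Averaged over the regions in a limma fit that treated libraries with the same genotype and number as related, the log2 fold changes were -0.63 ± 0.11 for Sgk1, -0.61 ± 0.12 for Ddit4, -0.59 ± 0.14 for Nfkbia, 1.11 ± 0.23 for Plin4 and 0.86 ± 0.12 for Fam107a. The adjusted p from limma were 0.20, 0.39, 0.68, 0.41 and 0.11 in the same order, and 0% of genes passed. The 5 other genes lay between -0.19 for Errfi1 and 0.29 for Fkbp5. At an unadjusted p under 0.05 there were 5 of the 10 genes and 4.4% of all genes. A fit without low-count filtering or without knockout cortex library 1 or wild-type cortex library 2 brought Fam107a past the threshold, and without knockout cortex library 1 also Sgk1 and Plin4.

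In the cerebellum the library numbers run from 1 to 3 in both genotypes, and libraries with the same number deviated from their group means together, with correlations across 15886 genes of 0.32, 0.81 and 0.43. With the number as a block, edgeR called 104 genes (0.421%), of which 5 belong to the 10: 3 of the 86 lower genes (0.348% of all) and 2 of the 18 higher genes (0.0729%). Sgk1 was lower by -0.67 ± 0.09 (adjusted p = 0.0033, edgeR), Ddit4 by -0.61 ± 0.12 (adjusted p = 0.038, edgeR) and Nfkbia by -0.64 ± 0.13 (adjusted p = 0.041, edgeR). Higher were Plin4 by 0.64 ± 0.09 (adjusted p = 0.0043, edgeR) and Fam107a by 0.80 ± 0.08 (adjusted p = 5.5e-04, edgeR). The sizes were those of the unblocked fit and the errors were smaller. Errfi1 at -0.30 ± 0.09 and Fkbp5 at 0.27 ± 0.12 had adjusted p of 0.23 and 0.46 in the same edgeR fit. Knockout library 1 also correlated with wild-type library 3 at 0.38 and knockout 3 with wild-type 1 at 0.52, so the pairing of numbers 1 and 3 is not settled by these data. With those numbers crossed, 231 genes passed (0.936%) and the call of Plin4 was lost (adjusted p = 0.4, edgeR), while the other 4 calls held. These values are from the same contrast in which the genes were first noticed.

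No gene of the 10 differed in its genotype effect between regions after adjustment by edgeR, and neither did any of the 24680 genes. Errfi1 alone had unadjusted p under 0.05: the effect in cortex minus that in cerebellum was 0.51 ± 0.23 (adjusted p = 0.79, edgeR), and in hippocampus minus cortex -0.68 ± 0.25 (adjusted p = 0.93, edgeR). At that level 5.3% and 3.17% of all genes were counted. For hippocampus minus cerebellum, none of the 10 and 1.49% of all genes had an unadjusted p under 0.05.

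Within regions, some genes of the set followed each other from library to library. After subtraction of each region's mean, the Pearson correlation of log2 CPM over the 14 libraries was 0.98 between Nfkbia and Ddit4, and each had the other as its closest gene of the whole table. Sgk1 correlated with Ddit4 at 0.88 and with Nfkbia at 0.84, Fkbp5 with Tsc22d3 at 0.84 and with Plin4 at 0.78, and Plin4 with Fam107a at 0.80. Sgk1 and Fam107a ran opposite at -0.82. These points share the genotype groups, the library preparation and any common depth or tissue effect, so the values describe the libraries. The genes most like the others were Gkn3 (0.97) for Sgk1, Sele (0.95) and Lcn2 (0.94) for Fam107a, and Ahnak (0.97) for Plin4. Fkbp5 was most like Slc25a33 (0.93), Tsc22d3 most like Cpm (0.94), Zbtb16 most like Map4k1 (0.91), Errfi1 most like Tsen34 (0.94) and Pdk4 most like Dtx3l (0.91).

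**Figure D3:**
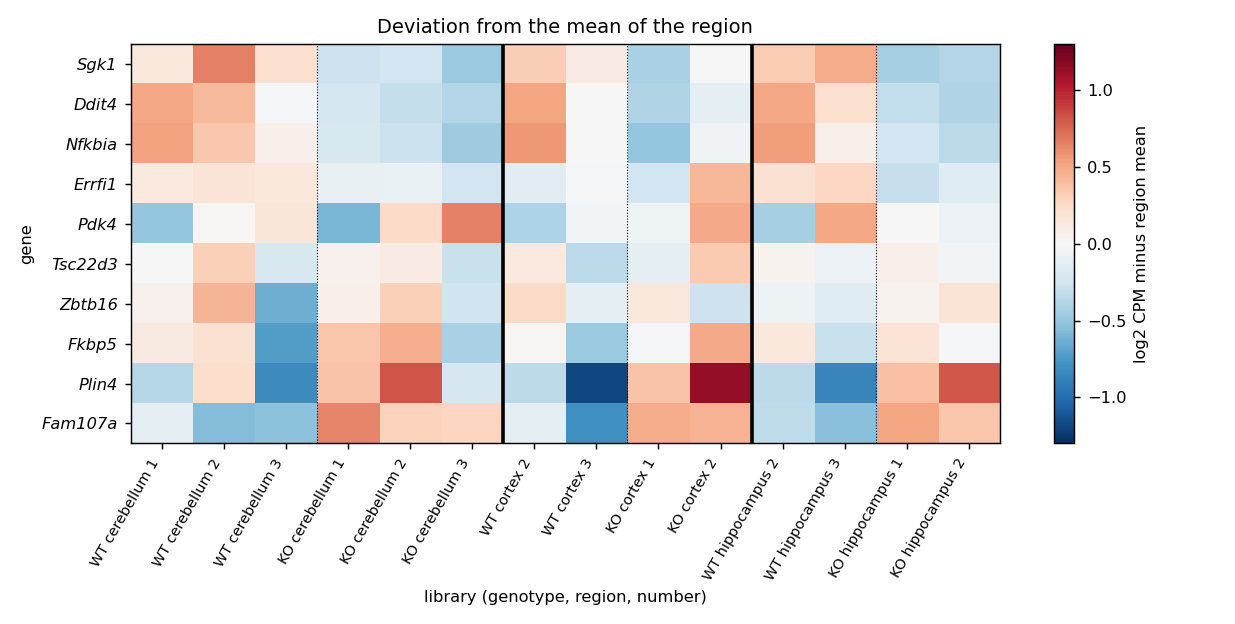
Log2 CPM minus the mean of the region (colour) for the 10 genes (rows) in the 14 libraries (columns, by region and genotype). Sgk1, Ddit4 and Nfkbia are above the regional mean in most wild-type and below it in most knockout columns, Fam107a and Plin4 the other way round in most, and the columns of wild-type libraries numbered 3 are low for Fkbp5, Zbtb16 and Plin4.

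A second pattern followed the library number in both genotypes. In the cerebellum, library 3 was the lowest of its genotype in both knockout and wild type for 6 of the 10 genes, namely Fkbp5, Tsc22d3, Nfkbia, Zbtb16, Ddit4 and Plin4, an arrangement held by 10.2% of all genes. Pdk4 was highest in library 3 of both genotypes, as were 11.2% of all genes. Wild-type library 3 was also below wild-type library 2 for 8 of the 10 genes in cortex (50.7% of all genes) and 7 of the 10 in hippocampus (48.9%). The same 6 genes held all of these positions at once, as did 3.72% of all genes. What the numbers stand for (an animal, a day or an order of handling) is not given in the sources used here.

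Other genes of the pathway were read from lists put together with earlier results known. Among 14 genes of the receptors and steroid handling, none passed between the genotypes in any region by edgeR, with list medians of -0.06, 0.11 and 0.02. Nr3c1, which encodes the glucocorticoid receptor, was at 104 to 172 CPM in all 14 libraries, with a mean log2 fold change over the regions of -0.02 ± 0.09. Nr3c2, which encodes the mineralocorticoid receptor, was at 278 to 382 CPM in hippocampus and 39.3 to 88.6 CPM elsewhere. Hippocampus exceeded cortex and cerebellum in Nr3c2 by 2.33 ± 0.19 and 2.33 ± 0.17 (adjusted p = 1.4e-05 and 3.1e-07, edgeR). Hsd11b1, whose enzyme regenerates active glucocorticoid inside cells, was higher in cerebellum than cortex by 1.06 ± 0.12 (adjusted p = 1.3e-05, edgeR) and in hippocampus than cortex by 1.05 ± 0.13 (adjusted p = 1.7e-04, edgeR). Receptor genes that passed numbered 2 higher and 4 lower in cerebellum against cortex. They numbered 3 and 0 in hippocampus against cortex, and 6 and 1 in hippocampus against cerebellum. Of all genes, 48.4%, 12% and 47.3% passed these contrasts in the same order, and nothing particular to the list is read from the counts.

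Among 28 other glucocorticoid-responsive genes, again none passed between the genotypes without the block. Those with a positive and a negative log2 fold change numbered 10 and 18 in cerebellum, 17 and 11 in cortex and 15 and 13 in hippocampus, with medians of -0.08, 0.15 and 0.10. With the block, 2 of the 28 passed in cerebellum, beside 0.421% of all genes. Lcn2, an iron-binding protein released in inflammation, was higher by 2.87 ± 0.26 (adjusted p = 1.6e-04, edgeR), and Per1, a core clock gene, was lower by -0.62 ± 0.08 (adjusted p = 0.0019, edgeR). Lcn2 had 8.58, 7.07 and 2.95 CPM in the knockout cerebellum and 1.15, 1.23 and 0.236 CPM in the wild type. Per1 had 79.5, 67.0 and 92.5 CPM against 113, 101 and 154 CPM. Both were thus apart in the cerebellum without overlap, in opposite directions, as were 4.78% of all genes on the higher and 4.52% on the lower side.

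**Figure D4:**
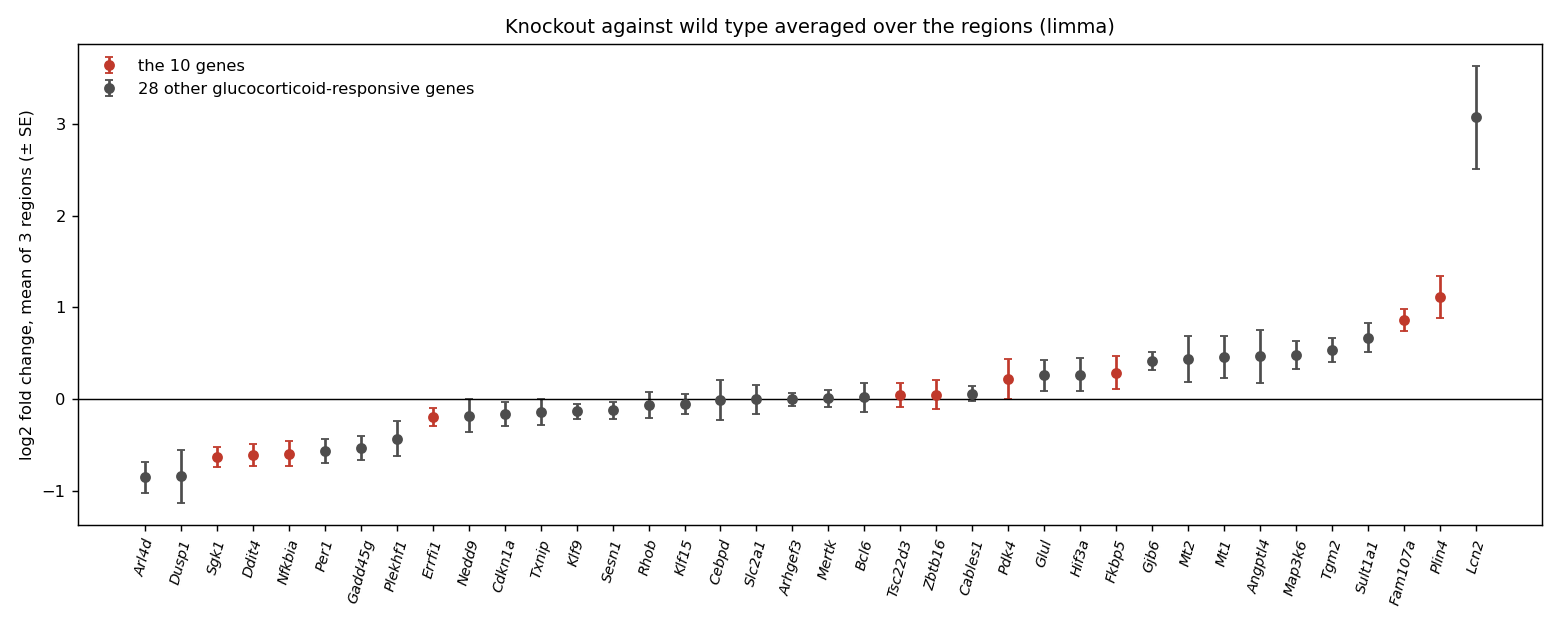
Log2 fold change of knockout over wild type averaged over the 3 regions from limma (vertical axis, error bars ± SE), sorted, for the 10 genes and for 28 other glucocorticoid-responsive genes. The 10 genes lie on both sides of 0, as do the 28, of which 15 are above and 13 below.

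Between regions the same 28 genes were spread over both directions. Those that passed numbered 5 higher and 8 lower in cerebellum against cortex (48.4% of all genes passed). In hippocampus they numbered 3 and 2 against cortex (12%) and 6 and 6 against cerebellum (47.3%). Nothing particular to the list is read from these counts. Bcl6, a transcriptional repressor, was lowest in cortex, with cerebellum higher by 1.46 ± 0.18 (adjusted p = 3e-05, edgeR) and hippocampus by 1.16 ± 0.19 (adjusted p = 0.0015, edgeR). Cebpd, a stress- and hormone-induced transcription factor, was higher in hippocampus than in cortex by 1.71 ± 0.28 (adjusted p = 0.0013, edgeR).

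Among 16 paralogues of the 10 genes, none passed between the genotypes, with the block or without it. Between regions Fam107b was higher in cerebellum than in cortex by 3.83 ± 0.21 (adjusted p = 3.3e-08, edgeR), a contrast that Fam107a did not pass. Pdk1 was lower in cerebellum than in cortex by -1.56 ± 0.09 (adjusted p = 4.7e-08, edgeR), whereas Pdk4 did not pass.

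Summed markers of some other cells stood apart between the genotypes in part of the data. The summed level of 8 endothelial markers was 313 to 340 CPM in knockout and 240 to 292 CPM in wild-type cortex, and 229 to 240 CPM and 202 to 217 CPM in hippocampus, so that knockout was above wild type without overlap in both. In cerebellum these sums of 224 to 279 CPM and 203 to 274 CPM overlapped. Taken singly, 3 of the 8 endothelial markers were higher without overlap in cortex and 2 in hippocampus, and 0 were lower. The others overlapped. Flt1, the endothelial marker with the highest level, was among the higher ones in both, at 88.4 to 95.8 CPM against 74.0 to 79.8 CPM in hippocampus. The 8 oligodendrocyte markers summed to 3011 to 4053 CPM in knockout and 4526 to 5382 CPM in wild-type hippocampus, and overlapped in cerebellum. Also lower in the knockout without overlap were the sums of 5 meningeal fibroblast markers in cerebellum (45.2 to 54.9 CPM against 76.4 to 80.6 CPM) and of 6 mural cell markers in hippocampus (150.2 to 158 CPM against 166 to 175 CPM). Taken singly, the mural markers did not all go this way in hippocampus. Without overlap, 1 of the 6 was lower, Rgs5 (72.6 to 73.1 CPM against 85.2 to 89.9 CPM). Another 1 was higher, Abcc9 (14.1 to 15.8 CPM against 11.1 to 13.9 CPM). The 5 erythroid markers were lower in cortex (211 to 245 CPM against 307 to 319 CPM) and hippocampus (95.4 to 142 CPM against 265 to 302 CPM). Over all 14 marker lists, the sums did not overlap for 3 lists in cerebellum (1 higher and 2 lower in knockout). In cortex this held for 6 lists (4 and 2) and in hippocampus for 9 (4 and 5). Of single genes, 4.78% were higher and 4.52% lower without overlap in cerebellum, 14% and 13.3% in cortex, and 18.1% and 18.6% in hippocampus. Such separation was thus common with 2 libraries of each genotype, and nothing is read from these counts. Col1a2, a collagen gene in the meningeal list, was among the 3 genes most like Nfkbia, at a correlation of 0.93. None of these markers passed between the genotypes by edgeR, and their part in the differences of Sgk1, Nfkbia, Ddit4, Plin4 and Fam107a was not tested.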

How the data were processed

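The deposited file holds raw read counts by Ensembl gene in 14 columns, 1 a library. Per the submitters' processing notes, the tools were Trim Galore 0.6.4, cutadapt 2.10, STAR 2.7.3a and featureCounts 2.0.1, on GRCm38.p6. The sources used here do not give the strand setting, the treatment of multi-mapped reads or the annotation release. GENCODE M21 gave symbols for 99.2% of IDs and exon lengths. The deposited counts were filtered with filterByExpr, scaled by TMM and fitted over 6 groups of region and genotype with edgeR 4.0.16 (R 4.3.3), with 8 residual degrees of freedom and Benjamini-Hochberg adjustment over all genes, threshold 0.05. The mean over regions used limma 3.58.1 (voom, estimated correlation 0.1). DESeq2 1.42.0 was an alternative. Scripts were tested on simulated data. CPM values are TMM-scaled. No libraries of a group agreed within sampling noise (chi-square per degree of freedom 7.0 or more). The rule for pairing numbers was that every same-number correlation in cerebellum exceeds 0.1, and all did. The rule cannot decide the pairing of numbers 1 and 3, because their crossed correlations of 0.38 and 0.52 exceed 0.1 too. The 10 genes and all lists were chosen with earlier results of these data known. Genes of a list are named where they passed, at most 4 a comparison, otherwise the 2 with the highest level. The most similar genes are the first of the 3 with the highest correlation. Lcn2 (rank 2 for Fam107a) and Col1a2 (rank 3 for Nfkbia) were named in addition, outside this rule.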

Additional observations from a re-analysis of the deposited data

How the results depend on the processing

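Of the 53 counts of genes called among the 10 under another normalisation, filter, tool, sample set or block, 46 were within 1.5 times the main count. In cerebellum the count of the 10 called between genotypes was 0, and with the replicate block it was 5, or 4 with numbers 1 and 3 crossed (chosen after seeing the data). In hippocampus the count was 0, and 2 (Sgk1 and Fam107a) with libraries of that region alone. For the mean of the regions it was 0, and 1 (Fam107a) with no filter. Hippocampus against cortex went from 2 to 1 in wild-type groups alone and to 0 in knockout groups alone, and hippocampus against cerebellum from 5 to 2 in knockout groups alone; these use fewer libraries. Leaving out 1 library gave 0 to 0 between genotypes in cerebellum and in hippocampus, 0 to 2 in cortex, 0 to 3 for the mean, 3 to 5 for cerebellum against cortex, 1 to 3 for hippocampus against cortex and 4 to 5 for hippocampus against cerebellum. The genotype effect of cortex minus cerebellum gave 0 to 1, and of hippocampus minus cortex 0 to 1. The 2 in cortex (Errfi1 and Fam107a) and the 1 in each difference (Errfi1) arose without knockout cortex library 1, which leaves as the only knockout library the one with striatal markers. No called value changed direction. In a limma fit with genotype and number as the block, every call of the 10 genes between regions held. Fkbp5 was added in hippocampus against cortex. No paired analysis was possible in cortex and hippocampus because the genotypes share only number 2 there. With 2 or 3 libraries a group and a biological coefficient of variation of 24.7% over all genes, small differences could not be called.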

Other observations

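Among 10 immediate early genes, which neuronal activity and handling induce within minutes, all 10 had a negative log2 fold change of knockout over wild type for the mean of the regions, with a median of -0.60. In cortex the median was -1.26 and all 10 were negative, in hippocampus -0.58 with 9, and in cerebellum -0.27 with 8. Of all genes tested, 50.4% had a negative value for the mean, 47.9% in cortex, 50.3% in hippocampus and 52.1% in cerebellum. Wild-type library 3 was the higher of the wild-type libraries in most: it was above wild-type library 2 in all 10 genes in cortex and in 9 of 10 in hippocampus. Wild-type library 2 exceeded both knockout libraries in 8 of the 10 genes in cortex and in 5 of the 10 in hippocampus. Arc, an activity-induced synaptic gene, was at 188 and 549 CPM in wild-type cortex libraries 2 and 3 and at 82.3 and 54.0 CPM in the knockout. In hippocampus Arc was at 108 and 219 CPM in the wild type and 92.4 and 92.9 CPM in the knockout. None passed without the block. With it Fos, which encodes a subunit of AP-1, passed in cerebellum at -1.0 ± 0.17 (adjusted p = 0.025, edgeR), beside 0.421% of all genes. Between regions, Egr1 was lower in hippocampus than in cortex by -1.11 ± 0.21 (adjusted p = 0.0045, edgeR).

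Among 10 genes of the integrated stress response, which can induce Ddit4 through ATF4, none passed between the genotypes. The mean over regions was -0.19 ± 0.08 for Atf4 and 0.41 ± 0.14 for Hspa5, with adjusted p of 1 for each by limma. Of 11 genes of the NF-kappaB pathway, whose inhibitor Nfkbia encodes, 10 could be tested and none passed between the genotypes. The list medians were 0.10 in cerebellum, 0.06 in cortex and -0.07 in hippocampus. Nfkbie, which encodes another inhibitor of the IkappaB family, was higher in cerebellum than in cortex by 2.59 ± 0.19 (adjusted p = 2.7e-07, edgeR), a contrast in which Nfkbia did not pass.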
